A study of Mus musculus with 8 samples.

Results

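The cells described here are tumor epithelial cells with little or no gastrokine RNA in 2 single-cell libraries from mouse pancreatic cancer. A barcode was a member if it held at least 1500 UMIs (unique molecular identifiers, each counting 1 captured RNA molecule), 200 or more genes and no more than 10% mitochondrial UMIs, and met 5 further limits. Per 10000 UMIs it had at least 30 of the keratins Krt8, Krt18 and Krt19 summed, under 10 of the macrophage complement genes C1qa, C1qb and C1qc summed, and under 10 of the gastrokines Gkn1 and Gkn2 summed. It had no UMI of the leukocyte gene Ptprc (CD45), and fewer than 3 of the division genes Mki67, Top2a, Birc5, Cdk1 and Ube2c. Of 9895 barcodes that passed the depth and quality limits, 1879 were members: 156 of 2277 in the primary library and 1723 of 7618 in the liver library. The members were therefore chosen by measured values, and keratin, C1q, Ptprc, division and gastrokine levels are given below as descriptions of the choice.

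FC1242 is a cell line from the KPC mouse model of pancreatic ductal adenocarcinoma. C57BL/6 mice received 100000 FC1242 cells, either in the pancreas (primary tumors) or so that tumors grew in the liver (labelled liver metastases), and all tumors were taken after 3 weeks. Whole tissue of 3 primary and 3 liver tumors was taken for bulk RNA-seq, and a sort for CD45+ cells preceded the single-cell libraries, 1 for each site. No drug treatment, sex or age of the mice is given in the labels, both sites carry the same line, and the liver tumors also started from injected cells.

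Gastrokines are small secreted proteins of the stomach's surface mucous cells, where they are made together with trefoil factors such as Tff1 and with gastric mucins such as Muc5ac. Pancreatic duct cells that turn neoplastic often take on such a gastric-type program. Keratins 8, 18 and 19 are the intermediate filaments of simple and ductal epithelium, and the mesenchymal filament vimentin (Vim) is often present beside them in cultured and poorly differentiated carcinoma cells.

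The libraries were deposited as all barcodes, with 82083967 UMIs in the primary library and 161890665 in the liver library. The members held no Ptprc UMI although the sort was for CD45+ cells, so their number is no measure of how frequent tumor cells were in the tissue. Median depth was 4810.5 UMIs and 1722 genes per primary member and 3908 UMIs and 1384 genes per liver member, and the median mitochondrial share was 3.93% and 2.26%. Both libraries shared 7 passing barcodes, of which 0 were members in both, while 1 primary member and 1 liver member had a barcode that also passed in the other library. With 1 library per site, site and library cannot be told apart and no test was made on cells. Intervals on UMI sums (exact Poisson) and on shares of cells (exact Clopper-Pearson) are at 95% and cover counting error only. A summed level is the summed UMIs of a gene over all members of a library, per 1000000 of their UMIs (CPM), and a share of cells is taken after each cell was thinned to 1500 UMIs, unless said otherwise.

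The 4 label markers were present in both libraries. Krt18 was seen in 94.9% of primary and 96.9% of liver members after thinning, and in 100% and 99.6% before it. Krt19 was seen in 66.0% and 81.1% after thinning (85.3% and 95.4% before), with summed levels of 1005 and 1978 CPM. Both keratins are part of the gate, so their presence was fixed by it. Cdkn2a, which encodes the cell cycle inhibitors p16INK4a and p19ARF and was not in the gate, was seen in 51.3% of primary and 46.5% of liver members (82.1% and 76.1% unthinned) at 484.5 and 478 CPM. Sprr1a, a cornified-envelope precursor that squamous epithelia make, was seen in 28.2% and 30.9% (44.9% and 47.2% unthinned) at 443 and 841 CPM. In liver leukocyte-gated cells (C1q of at least 10 per 10000 and a Ptprc UMI), where these genes should be absent, the thinned shares were 34.2% for Krt18, 23.8% for Krt19, 5.58% for Cdkn2a and 4.74% for Sprr1a, at a median depth of 11452 UMIs before thinning. For Cdkn2a and Sprr1a, which were not in the gate, the members of both libraries stood above these liver leukocytes. For Krt18 and Krt19 such a gap was fixed by the gate. In primary leukocyte-gated cells 9.27% had a UMI of any of the 4 genes after thinning. Doublets were not removed, and 41 of 2617 liver leukocyte-gated cells held at least 50 UMIs per 10000 of the 4 genes summed, against a median of 3.80, so RNA from a second cell and free RNA cannot be told apart there.

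**Figure D1:**
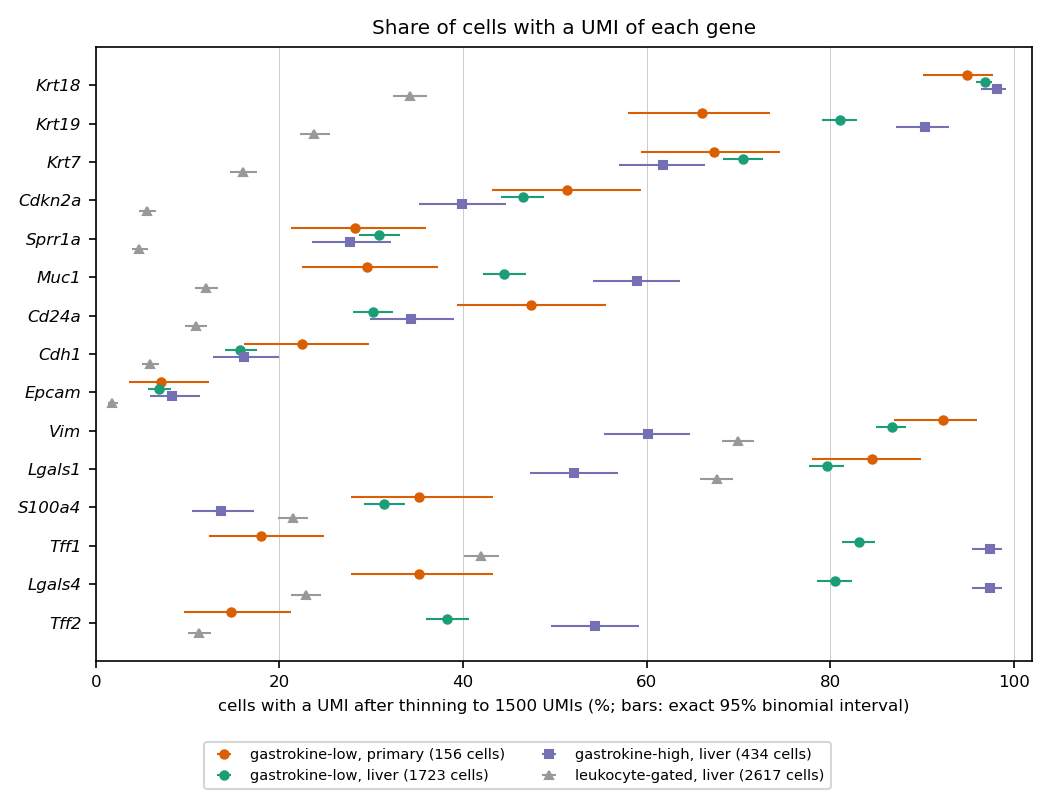
Percent of cells with at least 1 UMI of each of 15 genes after thinning to 1500 UMIs, for gastrokine-low cells of the primary and liver libraries, gastrokine-high liver cells and liver leukocyte-gated cells; bars are exact 95% binomial intervals. Gastrokine-low cells had Krt18 in 94.9% (primary) and 96.9% (liver) of cells, against 34.2% of liver leukocytes, a gap fixed by the gate, which uses Krt18.

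Other genes of a duct-like carcinoma were present as well. Keratins Krt8 and Krt7 stood at 3618 and 1313 CPM in primary and 3666 and 1424 CPM in liver members. Krt8 is part of the gate, so its presence was fixed by it, while Krt7 is not. The cell surface mucin Muc1 stood at 523 and 481 CPM, and the calcium-binding protein S100a6 at 20502 and 29569 CPM. Vim was seen in 92.3% of primary and 86.7% of liver members, at 3208 and 2776 CPM, and the galectin Lgals1 in 84.6% and 79.7%, at 2009 and 1862 CPM. Epithelial adhesion genes were low by comparison within the same cells: Epcam was seen in 7.05% and 6.85% and Cdh1 (E-cadherin) stood at 244 and 126 CPM. Levels between genes are not per length, and 3' counting of UMIs makes them a rough order only.

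Marker genes of other cell types were read in the same members. Hepatocyte genes summed to 104 CPM in primary members, where 5 of 14 had a UMI and Alb, Apoa1 and Apoc3 were at 0, and to 103 CPM in liver members. Acinar genes summed to 114 and 7.56 CPM, with all 13 seen in primary members and 6 of 13 in liver members. Macrophage markers summed to 830 CPM in primary and 1517 CPM in liver members, against 60441 and 53461 CPM in leukocyte-gated cells. Erythroid genes summed to 4.76 CPM in primary and 2125 CPM in liver members, where 21 cells carried at least 50 per 10000. For the macrophage list 5 primary and 200 liver members reached 50 per 10000. After thinning, 75.6% of primary and 90.1% of liver members had a macrophage marker UMI. With macrophage and cholangiocyte lists aside, 1 primary and 52 liver members reached 50 per 10000 for a marker list of another cell type. The members without the latter barcodes are among the alternatives given at the end. Members that reached it for the macrophage list alone were not left out there.

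Gastrokine RNA itself was more widespread in the liver library, in members and in leukocytes. At full depth, no gastrokine UMI was found in 142 of 156 primary members (91.0%) and in 784 of 1723 liver members (45.5%), and after thinning none was found in 1248 of the liver members. Among leukocyte-gated cells, which were deeper, the full-depth shares without one were 96.1% (1348 of 1402) in the primary and 47.0% (1231 of 2617) in the liver library. Per 10000 UMIs the liver members had a median of 0.818 gastrokine UMIs and the liver leukocyte-gated cells one of 0.456. Among non-cycling epithelial cells the gastrokine-low cells made up 97.5% (156 of 160, interval 93.7 to 99.3%) in the primary and 79.9% (1723 of 2157, interval 78.1 to 81.6%) in the liver library. The other cells of that gate, with at least 10 gastrokine UMIs per 10000, numbered 4 and 434 and are called gastrokine-high here. Gkn1 and Gkn2 are neighbours on mouse chromosome 6 in GRCm38, at chr6:87345653-87350915 and chr6:87373365-87379494.

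The cut at 10 fell within a continuous range. The highest liver members had 9.99, 9.98 and 9.97 gastrokine UMIs per 10000, and the lowest liver cells outside had 10.06, 10.06 and 10.08. There were 280 liver cells between 5 and 10 and 129 between 10 and 15. In the primary library the nearest members had 7.32, 5.81 and 4.30, and the nearest cells outside had 12.5, 19.7 and 50.5. At the keratin limit, 44 primary and 150 liver barcodes lay between 20 and 30 keratin UMIs per 10000, and 40 and 243 between 30 and 40.

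Against gastrokine-high cells of the same liver library, gastrokine-low cells had more RNA of some mesenchymal genes and less of the gastric-type genes. Of 2516 genes with enough UMIs (at least 50 CPM and 20 UMIs in the class where they were higher), 45 were at least 2-fold higher in gastrokine-low cells (1.79%) and 68 at least 2-fold lower (2.7%). In both libraries at once, 17 of 1476 genes were higher (1.15%) and 9 lower (0.61%), which rests on 4 gastrokine-high primary cells. Genes that vary with gastrokines belong to the choice of the cells, so these counts describe the split and support nothing.

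Of the 6 mesenchymal genes measured, 3 were over 2-fold higher in gastrokine-low liver cells and 0 lower, with a list median of 1.02 on the log2 scale against 0.09 for all 2516 genes. Vim stood at 2776 CPM in gastrokine-low and 1164 CPM in gastrokine-high liver cells, a log2 ratio of 1.25 (interval 1.20 to 1.30). Lgals1, which binds glycans on matrix and cell surfaces, stood at 1862 and 562 CPM, a log2 ratio of 1.73 (1.66 to 1.80). S100a4, a calcium-binding protein named for its tie to cell motility, stood at 419 and 109 CPM, a log2 ratio of 1.95 (1.79 to 2.11). In the 4 gastrokine-high cells of the primary library S100a4 was higher than in the members, with a log2 ratio of -2.48, while Lgals1 (1.78) and Vim (0.91) kept the liver direction.

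The chromatin proteins Hmga2 and Hmga1 and the transcription factor Sox4, all of fetal and progenitor-type cells, were also higher in gastrokine-low liver cells, at 138 against 50.1 CPM, 91.3 against 34.1 CPM and 205 against 78.4 CPM. The insulin-like growth factor binding proteins Igfbp4 and Igfbp7 stood at 129 against 48.2 CPM and 124 against 33.4 CPM. Timp1, an inhibitor of matrix metalloproteases, stood at 55.9 against 12.8 CPM. Ifitm1, an interferon-inducible membrane protein, stood at 82.5 against 13.5 CPM, and Ankrd1, a known target of the YAP coactivator, at 118 against 39.8 CPM. Each of these 8 genes was past 2-fold in the liver library. Fibroblast markers summed to 33.0 CPM in gastrokine-low and 9.64 CPM in gastrokine-high liver cells, and mesothelial markers to 14.1 and 2.25 CPM. The part of such RNA in these differences was not tested.

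Of the 13 gastric-type genes measured in the liver library, all 13 had a negative log2 ratio and 7 were past 2-fold, with a list median of -1.30. Tff1 stood at 3296 CPM in gastrokine-low and 18444 CPM in gastrokine-high liver cells, a log2 ratio of -2.48 (-2.50 to -2.47). The other trefoil factors, Tff2 (608 against 1590.1 CPM) and Tff3 (29.9 against 269 CPM), were lower too. The gastric mucin Muc5ac stood at 33.4 against 141 CPM and Agr2, a disulfide isomerase needed to fold mucins, at 21.3 against 165 CPM. Genes of gut-type absorptive cells differed alike: Lgals4 stood at 2346 against 6085 CPM, the retinol-binding protein Rbp2 at 949.6 against 2197 CPM, and Phgr1, a small protein of gut epithelium, at 251 against 1479 CPM. Carbonic anhydrase Car2 stood at 285 against 1429.8 CPM and the cytokine Il18 at 48.1 against 193 CPM.

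Several groups had few or no genes past 2-fold between the classes. Over all 2516 genes 1.79% were higher and 2.7% lower, so such counts in small lists tell little. Ductal genes had 1 member higher and 1 lower of 10, with a median of -0.03. Of 11 MHC class I genes 0 were past 2-fold, but 9 log2 ratios were negative and 2 positive, with a median of -0.22. Of 10 hypoxia genes 0 were past 2-fold, but 9 log2 ratios were positive and 1 negative, with a median of 0.44. Over all genes 1534 were positive and 982 negative, with a median of 0.09. Of 15 NRF2 (antioxidant) genes 2 were lower and 0 higher, with a median of -0.09. Cdkn2a stood at 478 against 323 CPM, a log2 ratio of 0.57. It was seen in 49.5% of liver cells with 0 gastrokine UMIs among 1500 and in 39.8% of those with 10 or more. Erythroid genes, which free RNA and blood can carry, were higher in gastrokine-low liver cells for 4 of 4 measured, with a median of 4.05. The share of cells with an erythroid UMI was alike, at 24.9% of gastrokine-low and 25.6% of gastrokine-high liver cells. At least 50 erythroid UMIs per 10000 were held by 21 gastrokine-low cells, at most 6858, and by 1 gastrokine-high cell. The part of erythroid RNA in the comparison was not tested.

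Across the liver non-cycling epithelial cells the gastric and mesenchymal genes varied by degrees with gastrokine UMIs. Cells were binned by gastrokine UMIs among 1500: 1261 cells had 0, 430 had 1, 287 had 2 to 4, 91 had 5 to 9 and 88 had 10 or more. Gastrokine-low cells were 1248, 398, 77, 0 and 0 of them. The share of cells with Phgr1 was 21.7%, 32.3%, 54.0%, 78.0% and 87.5% from the lowest to the highest bin, and that with Lgals4 was 78.0%, 88.1%, 94.4%, 94.5% and 100%. The share with Vim was 86.8%, 82.1%, 69.7%, 57.1% and 52.3%, and that with Lgals1 was 79.6%, 75.3%, 61.7%, 42.9% and 37.5%. Phgr1 was thus more frequent, and Vim and Lgals1 less frequent, at each step up, though intervals of neighbouring bins overlapped in part. Lgals4 rose as well but was level between 94.4% and 94.5%. Tff2 was less regular, at 38.2%, 42.1%, 53.0%, 59.3% and 52.3%. So were Rbp2, at 48.0%, 57.7%, 67.9%, 80.2% and 77.3%, and Ctse, at 20.3%, 24.4%, 22.65%, 28.6% and 36.4%. Sox4 went from 23.2% to 6.82% and Igfbp7 from 10.9% to 1.14% between the lowest and the highest bin. Krt18 was seen in 94.3 to 98.9% of cells in every bin and S100a6 in 100%. These shares share cells and depth with the gate and carry no test.

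**Figure D2:**
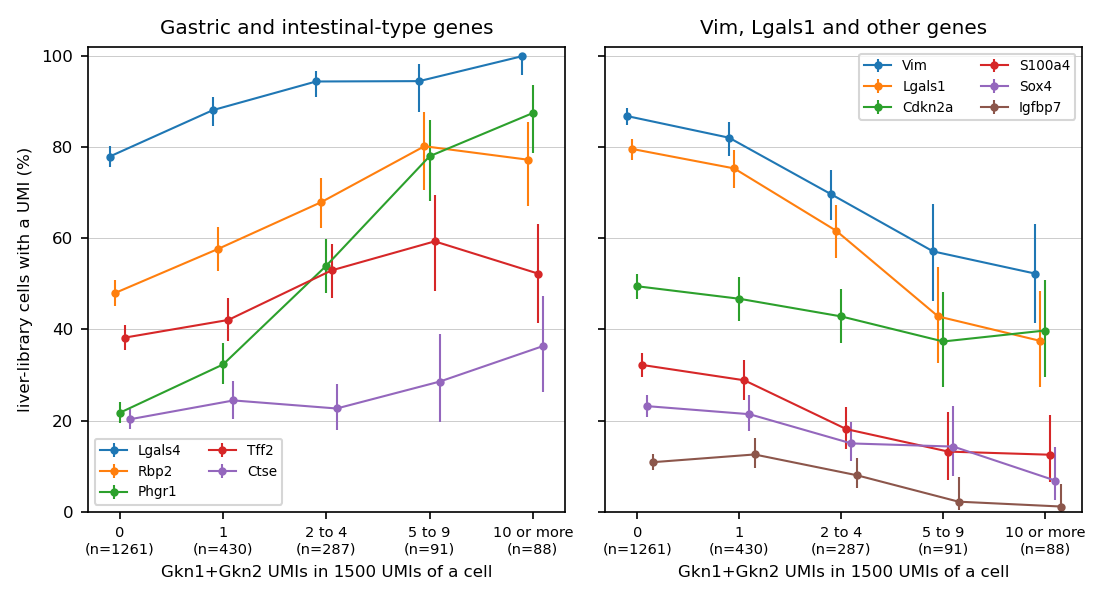
Percent of liver non-cycling epithelial cells with a UMI of each gene (thinned to 1500 UMIs, exact 95% binomial intervals), by gastrokine UMIs among the 1500; gastric and gut-type genes are on the left, Vim, Lgals1 and others on the right. Phgr1 went from 21.7% to 87.5% and Vim from 86.8% to 52.3% between the bins of 0 and of 10 or more gastrokine UMIs.

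Between the sites, 13 of 17 hypoxia genes, 6 of 12 immediate-early genes, 6 of 12 matrix genes and 3 of 5 iron and metallothionein genes were at least 2-fold higher in primary members. In liver members, 4 of 15 NRF2 (antioxidant) genes and 1 of 7 gastric-type genes were. Of 1530 genes with enough UMIs (at least 100 CPM and 20 UMIs in the higher library), 165 were at least 2-fold higher in primary members (10.8%) and 37 in liver members (2.42%), with a median log2 ratio of liver over primary of -0.05. The 37 genes include 4 of 4 erythroid and 2 of 3 macrophage markers measured. Without barcodes that carry markers of other cell types, macrophage and cholangiocyte lists aside, the counts were 167 in primary and 33 in liver members. The primary sums rest on few deep cells: 32 of 156 primary members had at least 20000 UMIs and held 64.7% of the primary members' UMIs, against 97 of 1723 and 28.8% in the liver library.

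Hypoxia genes are switched on when HIF transcription factors build up in low oxygen, and they cover glucose uptake, glycolysis, vessel growth and mitophagy. Of 23 listed genes 17 were measured, 13 were over 2-fold higher in primary members and 0 in liver members, and all 17 log2 ratios were negative, with a median of -1.31. The count was 10 by the mean over cells and 9 of 14 measured without barcodes of at least 20000 UMIs. Bnip3, a mitophagy receptor, stood at 266 CPM in primary and 24.9 CPM in liver members, a log2 ratio of -3.42 (-3.63 to -3.21), and was seen in 21.2% and 3.42% of cells. Vegfa, the main vessel growth factor, stood at 356 and 39.0 CPM, a log2 ratio of -3.19 (-3.36 to -3.02), and was seen in 19.2% and 3.60%. Ndrg1, a stress-response gene, stood at 507 and 114 CPM. The glucose transporter Slc2a1 stood at 147 and 29.6 CPM, hexokinase Hk2 at 125 and 18.1 CPM, the mTOR inhibitor Ddit4 at 160.3 and 23.9 CPM, and the HIF prolyl hydroxylase Egln3 at 150.2 and 30.9 CPM. Glycolytic enzymes differed less: Pgk1 stood at 1319.8 and 589.8 CPM, Gapdh at 3529 and 1717 CPM, and Ldha at 1039 and 744 CPM, short of 2-fold. Pgk1 and Gapdh have many near-identical pseudogene copies, so reads may be split among them and these levels are uncertain.

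The list's median was below 0 in other cells too. Cycling epithelial cells had a hypoxia median of -0.68 against -0.04 over all genes of the site comparison. Leukocyte-gated cells had one of -0.48 against 0.29, each on the log2 scale of liver over primary. Vegfa stood at 205 CPM in primary and 23.2 CPM in liver leukocyte-gated cells, and Bnip3 at 241 and 61.1 CPM. Bnip3 was seen in 26.2% of primary leukocyte-gated cells, above the 21.2% of primary members, so the members' share does not exceed that of other cells in the same library. The part of free RNA and of library handling in the site difference was not tested. Within cells of similar depth the direction was the same for the genes below: for 1500 to 6000, 6000 to 20000 and at least 20000 UMIs, the log2 ratio was -3.10, -3.29 and -3.22 for Bnip3, -2.14, -0.99 and -2.94 for Vegfa, and -0.90, -0.97 and -0.91 for Gapdh. For Hk2 it was -1.33, -0.70 and -3.03, and for Slc2a1 -0.27, -1.38 and -1.96. Vegfa, Hk2 and Slc2a1 rested more on the deep cells. In the same bins the primary members held 32, 23 and 618 Vegfa UMIs, 11, 11 and 215 Hk2 UMIs, and 8, 17 and 253 Slc2a1 UMIs. The summed primary levels of these genes thus come mainly from 32 cells.

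**Figure D3:**
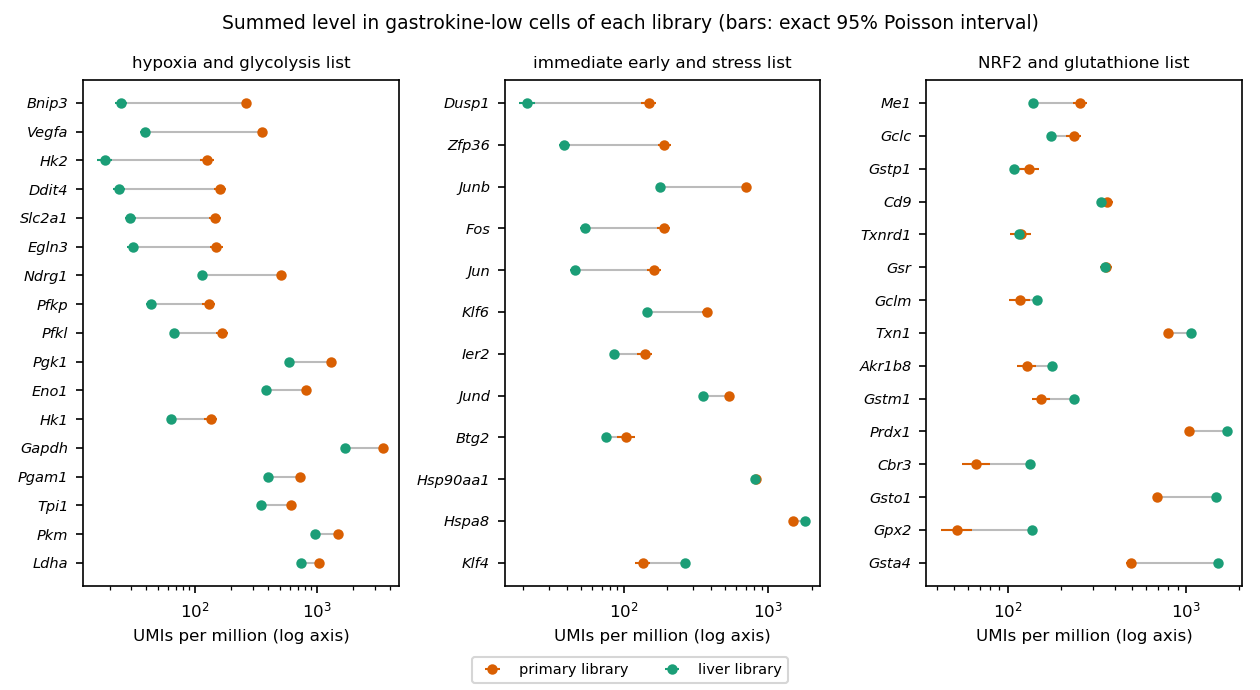
Summed levels (CPM, log axis) in gastrokine-low cells of the primary and the liver library for genes of the hypoxia, immediate-early and NRF2 lists, with exact 95% Poisson intervals. Hypoxia genes such as Bnip3 (266 and 24.9 CPM) lie higher in the primary library, and the NRF2 gene Gsta4 (492 and 1523 CPM) lies higher in the liver library.

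**Figure D4:**
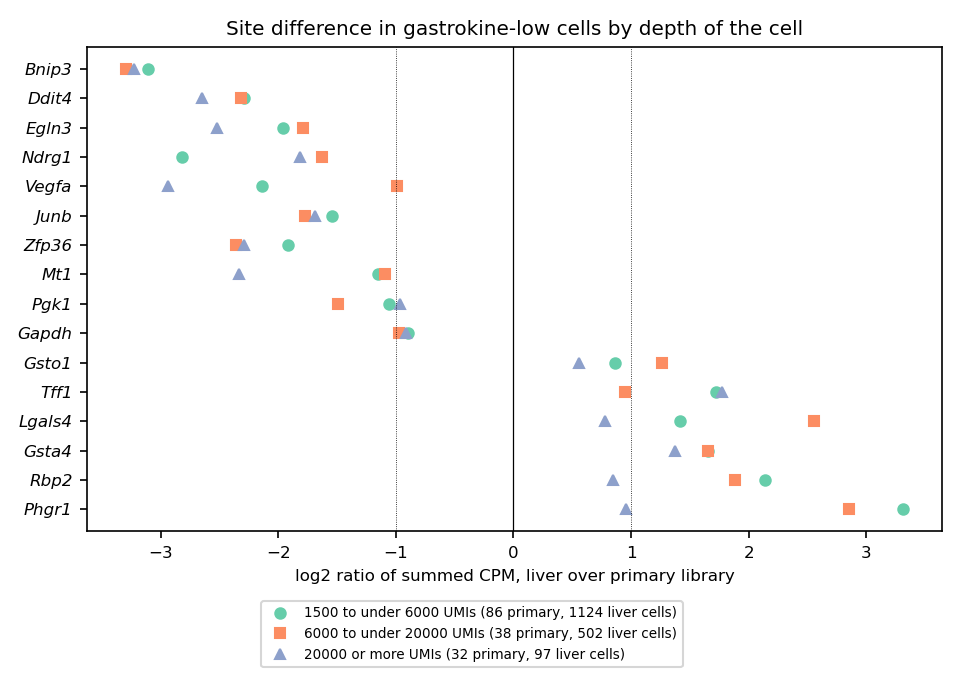
Log2 ratio of liver over primary summed level in gastrokine-low cells, for 16 genes in 3 bins of UMIs per cell (86 and 1124, 38 and 502, and 32 and 97 primary and liver cells). Bnip3 was near -3 in each bin, and Gsta4 was above 1 in each, while Lgals4, Rbp2 and Phgr1 were below 1 in the deepest bin.

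The HIF core motif, ACGTG or GCGTG read on both strands (so CACGT or CACGC on the strand shown), was looked up in the 250 bases before each gene's start, from RefSeq on GRCm38.p6. It was found in 22 of 23 hypoxia genes (95.7%), in 12 of 12 of those past 2-fold that have an entry, in 66.4% of the genes of the site comparison and in 41.5% of all 27025 promoters. Among genes past 2-fold it was in 71.7% of those higher in primary members and in 41.9% of those higher in liver members. Stretches that hold the motif are shown for 5 of the genes named above as examples with 5, 2 and 1 matches, chosen after their values were seen, with the motif in capitals (matches on opposite strands may overlap, as in CACGTG), on the gene's own strand.
Bnip3, chr7:138909522-138909638, minus strand: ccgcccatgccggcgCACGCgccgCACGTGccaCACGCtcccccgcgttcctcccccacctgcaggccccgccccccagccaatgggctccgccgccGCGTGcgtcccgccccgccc
Pgk1, chrX:106186935-106186988, plus strand: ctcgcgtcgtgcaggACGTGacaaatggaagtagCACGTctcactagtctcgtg
Slc2a1, chr4:119108669-119108728, plus strand: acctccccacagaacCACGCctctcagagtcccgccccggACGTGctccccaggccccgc
Ddit4, chr10:59951866-59951972, minus strand: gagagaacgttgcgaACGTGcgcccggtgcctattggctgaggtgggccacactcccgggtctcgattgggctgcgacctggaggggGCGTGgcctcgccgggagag
Egln3, chr12:54204084-54204118, minus strand: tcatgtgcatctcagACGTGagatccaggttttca
Bnip3 had 5 matches in its 250 bases, Pgk1, Slc2a1 and Ddit4 had 2 each, and Egln3 had 1. A match describes the letters only. The hypoxia list was made of genes that answer to HIF, so its high share with the motif follows from that choice and tells nothing about these cells.

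Immediate-early genes answer growth factors and stress within minutes, including cell dissociation. Of 12 measured, 6 were over 2-fold higher in primary members and 0 in liver members, with a median of -1.05, and the count was 3 of 9 measured without barcodes of at least 20000 UMIs. Junb stood at 697 and 177 CPM, Fos at 188 and 53.2 CPM, the phosphatase Dusp1 at 149 and 21.2 CPM and the RNA decay factor Zfp36 at 189.9 and 38.6 CPM. Klf4 went the other way, at 135 CPM in primary and 265 CPM in liver members. In leukocyte-gated cells the list's median was -0.35 against 0.29 over all genes, and Junb stood at 912 and 433 CPM. Of 6 Ras and MAPK target genes measured 3 were past 2-fold in primary members and 0 in liver members, and of 2 genes of the EGFR family and its ligands both were. Examples are Ier3 at 351 and 101 CPM, Errfi1 (an EGFR inhibitor) at 335 and 92.0 CPM, and the EGFR ligand Hbegf at 251 and 96.0 CPM. The cyclin-kinase inhibitor Cdkn1a (p21) stood at 303 and 65.3 CPM, while leukocyte-gated cells had it at 439 and 113 CPM.

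Matrix and adhesion genes followed with 6 of 12 past 2-fold in primary members, 0 in liver members and a median of -0.94, and the count was 2 of 7 measured without barcodes of at least 20000 UMIs. The integrin subunit Itgav stood at 115 and 34.8 CPM, the matricellular Ctgf at 198 and 44.3 CPM, and the hyaluronan receptor Cd44 at 282 and 138 CPM. Plat was left out of further reading, as 72.6% of its primary UMIs came from 1 cell. The metal-binding proteins Mt1 (4349.8 and 1235 CPM) and Mt2 (1467 and 456 CPM) were higher in primary members; in leukocyte-gated cells Mt1 stood at 3267 and 820 CPM. Ductal genes had 4 of 8 higher in primary members and 1 in liver members, and 0 of 7 measured were past 2-fold in primary members without barcodes of at least 20000 UMIs. Cd24a, a surface glycoprotein of epithelial cells, stood at 527 and 254 CPM, and Sox4 at 478 and 205 CPM. Epcam stood at 207 and 75.7 CPM, and its log2 ratio turned from -1.45 to 0.55 without those deep barcodes.

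Some single genes of gastric and gut epithelium were at least 2-fold higher in liver members. Among 7 gastric-type genes measured, 1 was past 2-fold in liver members and 0 in primary members, 5 log2 ratios were positive and 2 negative, and the median was 0.52. The same list's median was 1.53 in cycling epithelial cells and 4.44 in leukocyte-gated cells, against -0.04 and 0.29 over all genes. How much gastric RNA from outside the cell adds to these values was not tested. Tff1 stood at 1160.1 and 3296 CPM and was seen in 17.9% of primary and 83.2% of liver members, but also in 2.85% and 42.0% of leukocyte-gated cells, and 35.2% of its primary UMIs came from 1 cell. Lgals4 stood at 882 and 2346 CPM and was seen in 35.3% and 80.6% of members, against 1.71% and 22.9% of leukocyte-gated cells. Rbp2 stood at 286 and 949.6 CPM and Phgr1 at 57.1 and 251 CPM, both well above the 57.8 and 23.9 CPM of liver leukocyte-gated cells. In cells of at least 20000 UMIs the log2 ratio was 0.78 for Lgals4, 0.85 for Rbp2 and 0.96 for Phgr1, short of 2-fold. In cells of 1500 to 6000 UMIs it was 1.42, 2.14 and 3.31. Tff1 was at 1.77 and 1.73 in the same bins. Lyz2, a macrophage gene, stood at 37.6 and 264 CPM. Macrophage markers as a list were at 830 and 1517 CPM in the same members, and their part in the Lyz2 difference was not tested.

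The NRF2 list covers enzymes that detoxify electrophiles and peroxides. Of 15 measured, 4 were over 2-fold higher in liver members and 0 in primary members, with 9 log2 ratios positive and 6 negative. The median was 0.45 in members, and 1.25 in leukocyte-gated cells against 0.29 there over all genes. The count was 5 of 15 without barcodes of at least 20000 UMIs. Gsta4, a glutathione transferase that removes lipid peroxidation products, stood at 492 and 1523 CPM, a log2 ratio of 1.63 (1.53 to 1.73), and was seen in 29.5% of primary and 73.1% of liver members, against 0.999% and 13.8% of leukocyte-gated cells. The glutathione peroxidase Gpx2 stood at 51.8 and 138 CPM, the glutathione transferase Gsto1 at 694 and 1476 CPM, the carbonyl reductase Cbr3 at 66.7 and 134 CPM, and the peroxiredoxin Prdx1 at 1038 and 1696 CPM. In cells of at least 20000 UMIs the log2 ratio was 0.84 for Gpx2 and 0.56 for Gsto1, short of 2-fold, and 1.38 for Gsta4. The NRF2 motif TGACNNNGC was found in 4 of 17 promoters of the list (23.5%) and in 11.5% of all promoters, and in 0 of the 3 liver-higher genes with an entry.

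The bulk tumors gave replicated values of the same genes in samples the rule did not use. Depth was 27481390 to 36743247 reads per library, the labels do not say whether the 3 tumors per site came from separate mice, so p-values measure the spread between these samples, and in a whole tumor fewer cells of a type and less RNA per cell cannot be told apart. Of 16487 genes tested by edgeR's quasi-likelihood test with Benjamini-Hochberg adjustment, 2755 were higher in liver tumors (16.7%) and 1032 lower (6.26%). Leaving out liver replicate 2 gave 1810 and 134, liver replicate 1 gave 2097 and 414, primary replicate 3 gave 2172 and 606, and primary replicate 2 gave 3346 and 1468. The number of lower genes thus rests on single libraries. Hepatocyte genes took 6.42 to 10.4% of liver reads against 0.0205 to 0.0655% of primary reads.

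Of the 165 genes past 2-fold higher in primary members, 164 were tested in bulk: 37 were lower in liver tumors (22.6%) and 7 higher (4.27%). Among genes within 2-fold in the members, 8.36% of 1316 were lower and 3.72% higher. The 37 genes were 24.3% of the 152 genes measured in the members that were lower in bulk liver tumors. Of the 37 genes higher in liver members, 36 were tested, and 2 were higher (5.56%) and 5 lower (13.9%) in liver tumors. Those 37 genes include erythroid and macrophage markers. Keratin 18 and Gkn1 did not pass the test. Krt18 was 1192, 2947 and 1559 CPM in primary and 1019, 906 and 853 CPM in liver tumors, with adjusted p = 0.0779. Gkn1 was 199, 182 and 105 CPM against 163, 57.7 and 80.6 CPM, with adjusted p = 0.254, and the ranges overlapped. Gastrokine reads per 100 keratin reads were 19.9, 6.53 and 6.99 in primary and 15.3, 5.93 and 9.15 in liver tumors, a log2 difference of -0.04, with exact permutation p = 1, where the smallest possible is 0.1. The corresponding values in epithelial-gated cells of the single libraries were 1.06 and 14.6 gastrokine UMIs per 100 keratin UMIs, on the scale of 3' UMI counts and not of bulk reads.

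Of the 4 label markers, Cdkn2a and Sprr1a were lower in liver tumors. The members differed from this, as their Sprr1a level was higher in the liver library and their Cdkn2a level was nearly the same in both. Cdkn2a was 346, 253 and 363 CPM in primary and 178, 124 and 182 CPM in liver tumors, with no overlap, and its log2 change was -0.99 (SE 0.24, adjusted p = 0.0223 by edgeR). Sprr1a was 80.0, 333 and 105 CPM against 42.4, 49.2 and 29.7 CPM, a log2 change of -2.10 (SE 0.53, adjusted p = 0.0246 by edgeR). The Cdkn2a call was lost without primary replicate 1 (adjusted p = 0.06 by edgeR), primary replicate 3 (0.0739), liver replicate 1 (0.0508) or liver replicate 2 (0.111). The Sprr1a call was lost without liver replicate 1 (0.085), 2 (0.0784) or 3 (0.0753). Cd24a was 646, 640.0 and 643 CPM against 211, 232 and 287 CPM, a log2 change of -1.40 (SE 0.22, adjusted p = 0.00249 by edgeR), and adjusted p stayed at or under 0.0216 with any single library left out.

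Part of the hypoxia list was lower in liver tumors. Of 24 tested, 10 were lower in liver tumors and 0 higher, while over all genes 6.26% were lower and 16.7% higher. The list median was -0.80 against -0.07 over all genes. The list count was not repeated with single libraries left out. Ndrg1 was 282, 1348 and 526 CPM in primary and 152, 159.5 and 197 CPM in liver tumors, a log2 change of -2.08 (adjusted p = 0.0249 by edgeR), and Ddit4 was 83.2, 221 and 87.4 CPM against 31.6, 36.2 and 51.6 CPM, a log2 change of -1.71 (adjusted p = 0.0199). The Ndrg1 call was lost without liver replicate 1 (adjusted p = 0.0908 by edgeR), 2 (0.11) or 3 (0.0558), and the Ddit4 call without liver replicate 1 (0.0762) or 2 (0.096). Bnip3 (41.3, 77.0 and 83.2 CPM against 80.1, 84.4 and 64.7 CPM, adjusted p = 0.665) and Vegfa (248, 341 and 373 CPM against 269, 174 and 220.3 CPM, adjusted p = 0.162), which had the widest hypoxia gaps in the members, did not pass in bulk and their ranges overlapped.

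**Figure D5:**
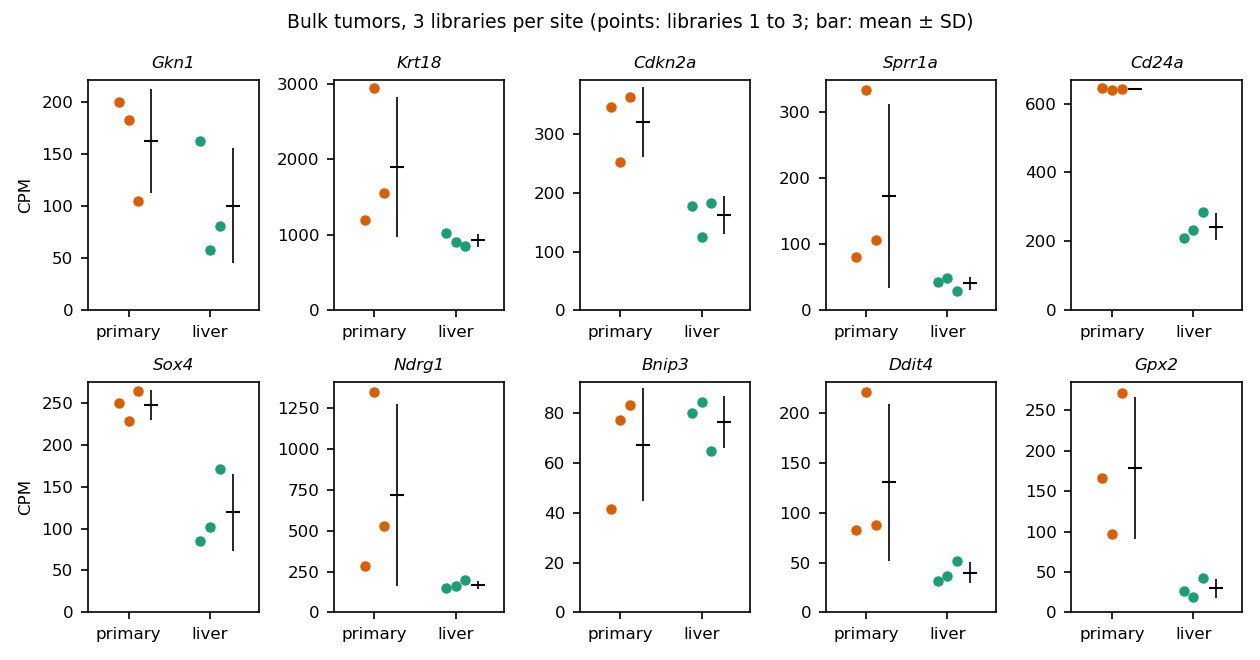
CPM of 10 genes in 3 primary and 3 liver bulk tumors, 1 point per library, with mean and SD. Cd24a lies at 640.0 to 646 CPM in primary and 211 to 287 CPM in liver tumors, without overlap, whereas Bnip3 lies at 41.3 to 83.2 CPM and 64.7 to 84.4 CPM.

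Some genes went against the cells. Gpx2, higher in liver members, was 167, 96.9 and 272 CPM in primary and 27.1, 18.8 and 43.0 CPM in liver tumors, a log2 change of -2.59 (SE 0.44, adjusted p = 0.00418 by edgeR). The other 3 NRF2 genes past 2-fold in liver members were also below their primary range in every liver tumor without passing the test, with log2 changes of -1.03 for Gsta4 (adjusted p = 0.0892 by edgeR), -1.29 for Gsto1 (0.0725) and -1.45 for Cbr3 (0.0641). Errfi1, lower in liver members, was 144, 233 and 160.3 CPM against 848, 873 and 491 CPM, a log2 change of 2.04 (SE 0.32, adjusted p = 0.00257 by edgeR). For Muc5ac a site difference in the members is not given here. In bulk Muc5ac was higher in liver tumors at 20.9, 16.6 and 22.4 CPM against 9.91, 5.82 and 5.69 CPM, a log2 change of 1.48 (SE 0.29, adjusted p = 0.00775 by edgeR). In the same test 8 of 22 gastric-type genes were lower and 3 higher, while over all genes 6.26% were lower and 16.7% higher. The Gpx2, Errfi1 and Muc5ac calls held with any single library left out. B2m, the light chain of MHC class I, was 546, 1145 and 788 CPM against 2683, 1980.1 and 1738 CPM, with adjusted p = 0.0252, while the members had 1350.5 and 649 CPM, and its bulk call was lost without primary replicate 1 (adjusted p = 0.0749 by edgeR), primary replicate 3 (0.0833), liver replicate 1 (0.0756) or liver replicate 2 (0.0719). Bulk tumors hold hepatocytes and immune cells as well, and how much of these values comes from tumor cells was not tested.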

How the data were processed

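The authors deposited 1 table of raw read counts for the 6 bulk libraries and UMI count matrices for the 2 single-cell libraries, with all 6794880 barcodes and 31053 genes per library. Normalized and FPKM tables were not used. Per the submitters' processing notes, bcl2fastq, Cell Ranger and mm10 were used, with no role given; the bulk aligner and counting tool are not given in the sources used here. The members and gene lists were chosen with earlier results of these data known.

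Cells were selected with Python 3.11.15 (numpy 2.4.6, scipy 1.17.1, pandas 2.3.3) by the limits in the report. UMIs were summed per class and library and given as CPM; genes used by the rule were left out of counts. A gene was counted past 2-fold with at least 50 CPM (classes) or 100 CPM (sites) and 20 UMIs in the higher group. Scrublet in scanpy 1.11.5, at an expected rate of 6%, marked 5 of 2277 primary and 1 of 7618 liver barcodes and 0 members, under 0.5% in either library, so it has not worked and doublets remain. Bulk counts were tested in R 4.3.3 with edgeR 4.0.16 (TMM, filterByExpr, robust quasi-likelihood fit on site, Benjamini-Hochberg at 0.05), checked on simulated data. Bulk CPM use TMM-scaled totals.

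Named genes followed a rule on the sums: the largest differences between classes in both libraries and between sites, the 4 most abundant members of each list, the most abundant genes and a set of markers. Slc2a1, Hk2, Ddit4, Egln3, Ndrg1, Fos, Dusp1, Zfp36, Cdkn1a, Klf4, Gpx2, Cbr3, Agr2, Car2, Timp1, Il18, Ctgf and Itgav were in part chosen after their values were seen. Alternatives changed the depth, mitochondrial, keratin and gastrokine limits, the fold and CPM minimum, the bulk normalization, filter and tool, and left out each bulk library; leaving out barcodes of at least 20000 UMIs or with markers of other cell types was chosen after seeing the data. Aldoa was left out of the hypoxia list in cells because its symbol stands for more than 1 gene ID. Some members of the lists are counted but not reported by name here.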

Additional observations from a re-analysis of the deposited data

How the results depend on the processing

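With a minimum of 1000 UMIs the liver library gave 2600 members, and with 3000 it gave 1073. At most 5% mitochondrial UMIs left 99 primary members, with 10 genes higher and 4 lower in both libraries; at most 20% gave 107 genes higher in primary members. A keratin limit of 60 left 68 primary and 1098 liver members, 75.8% of the non-cycling liver epithelial cells. A gastrokine limit of 5 gave a liver share of 66.9%. Members without any gastrokine UMI, set against cells with at least 20 per 10000, were 88.8% of the primary and 36.3% (784 cells) of the liver gate, with 5 genes lower in both libraries, and 113 higher and 155 lower in the liver library. A gate on thinned cells gave 23 lower in both libraries. A 1.5-fold threshold gave 74 higher and 17 lower in both libraries, 199 and 165 in the liver library, and 183 higher in liver and 338 in primary members; 3-fold gave 1 and 5, 18 and 32, and 13 and 51. Without a CPM minimum the counts were 29 higher in both, 1031 and 241 in the liver library, and 813 in liver and 886 in primary members. Leaving out barcodes of at least 20000 UMIs gave 4 lower in both libraries and turned Epcam between sites to 0.55. Leaving out barcodes with markers of other cell types, macrophage and cholangiocyte lists aside, left 155 primary and 1671 liver members. It gave 18 genes higher and 9 lower in both libraries, and 41 and 68 in the liver library. Between the sites it gave 33 higher in liver and 167 in primary members.

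In bulk, leaving out 1 library gave 1810 to 3346 genes higher and 134 to 1468 lower in liver tumors. With 1 library left out, the log2 change ran from -0.0695 to 0.368 for Bnip3 (negative without primary replicate 1), from -1.18 to 0.56 for Mt1, -1.17 to 0.83 for Mt2 and -2.50 to 0.14 for Tff3, these 3 being positive without primary replicate 2. The cause was not tested. DESeq2 gave 3298 and 1425, RLE factors 2770 and 986, and no filter 2793 and 1188. The replicate block gave 2703 higher and 873 lower, but same-numbered libraries correlated at -0.196, 0.279 and 0.103, so the numbers do not pair the samples.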
